A study of Mus musculus with 8 samples.

Results

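The genes described here are 10 genes of enteroendocrine cells, the hormone-secreting cells of the intestinal epithelium. They are the granin genes Chga and Chgb, the serotonin synthesis gene Tph1, and the peptide hormone genes Cck, Gip, Sct, Ghrl, Sst, Gcg and Pyy. They were chosen as known genes of this cell type and not by a measured value or threshold, and all 10 were found among the 54532 genes of the count table. Epithelial cells came from the intestine of mice at lactation day 5, from 4 WT and 4 Rank-knockout mice with 1 library each, and the question was whether these genes differed between the genotypes. Rank is the receptor activator of NF-κB, and its gene symbol is Tnfrsf11a. Per the study's methods, a floxed Rank allele was deleted with Cre under the Villin promoter, which is active throughout the intestinal epithelium and so also in the lineage that gives rise to enteroendocrine cells. All mice were on a C57BL/6J background and were littermate females mated with WT C57BL/6J males. The study's reporting summary describes age-matched littermates and gives a wide age range for all its mice. The alleles that the WT littermates carried, the exact age of these dams and the intestinal segment of these libraries are not given in the sources used here.

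Enteroendocrine cells are scattered singly among the enterocytes, and each stores peptide hormones or serotonin in dense-core granules and releases them when nutrients or other stimuli reach the cell. They arise from crypt progenitors that switch on the transcription factor gene Neurog3, and they mature as they move up the villus. In the small intestine, cells making secretin, cholecystokinin and gastric inhibitory polypeptide are most common towards the duodenum and jejunum, whereas cells making peptide YY are most common in the ileum and colon. Chromogranins are found in the granules of most of these cells and serve as their general markers.

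Total counts ran from 1530781 to 4335653 per library, and WT replicates 1, 3 and 4 were the shallowest. Reads were tags from the 3′ end of each transcript, so a transcript gave about 1 tag whatever its length, and levels in CPM (counts scaled to a common library size) can be compared between genes without a correction for length. Of 9855 genes with enough counts to test, 1555 (15.8%) had higher and 1438 (14.6%) had lower levels in Rank-knockout by edgeR at an adjusted p under 0.05, so that 30.4% were called in either direction. Tnfrsf11a itself was at 60.7 ± 17.7 CPM in WT against 37.98 ± 8.64 CPM in Rank-knockout (SD, n = 4). This gave a log2 fold change (log2FC, here and below Rank-knockout minus WT) of -0.67 with an edgeR adjusted p of 0.032, and the call was lost in 6 of 17 alternative analyses. The libraries overlapped, at 41.7 to 77.4 CPM in WT against 27.2 to 47.2 CPM in Rank-knockout. Where the tags lie relative to the deleted exons was not determined, so this level was not used to check the labels. The 7 epithelial markers, among them Epcam and Vil1, were all detected, 3 of them lower and 1 higher in Rank-knockout. Summed villus enterocyte markers were at 16675 to 23667 CPM in WT against 7960 to 11606 CPM in Rank-knockout, and summed cell cycle genes were at 366 to 579 CPM in WT against 873 to 1455 CPM in Rank-knockout. Libraries of many cells together cannot tell fewer cells of a type from less RNA per cell, which holds for every value below.

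None of the enteroendocrine genes passed the test. Of the 10, 9 had enough counts to be tested, and 0 were called by edgeR, where 30.4% of all tested genes were. At an unadjusted edgeR p under 0.05 there were 2, Chgb and Tph1. DESeq2 and limma-voom, which called 29.2% and 29% of all tested genes, each called 0 of these, with 1 at an unadjusted p under 0.05. Every called gene also has an unadjusted p under 0.05. The shares of all tested genes under that cut are thus at least 30.4%, 29.2% and 29% in edgeR, DESeq2 and limma-voom. Nothing is read from these counts. The log2FC values of the 9 genes lay between -0.55 and 0.50, with 4 above 0 and 5 below, and a median of -0.02 beside 0.02 for all tested genes. Their median size without regard to sign was 0.28, beside 0.39 for all tested genes and 0.36 for the 6511 tested genes with a mean level from 12.8 to 232 CPM, the range that the 9 genes span, of which 32.8% were called. The 95% interval of the fold change lay inside a 2-fold change either way for 7 of the 9 genes and inside 1.5-fold for 2, so that changes beyond 2-fold lay outside the interval for most of them. Missing the threshold does not show that the levels were equal.

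**Figure D1:**
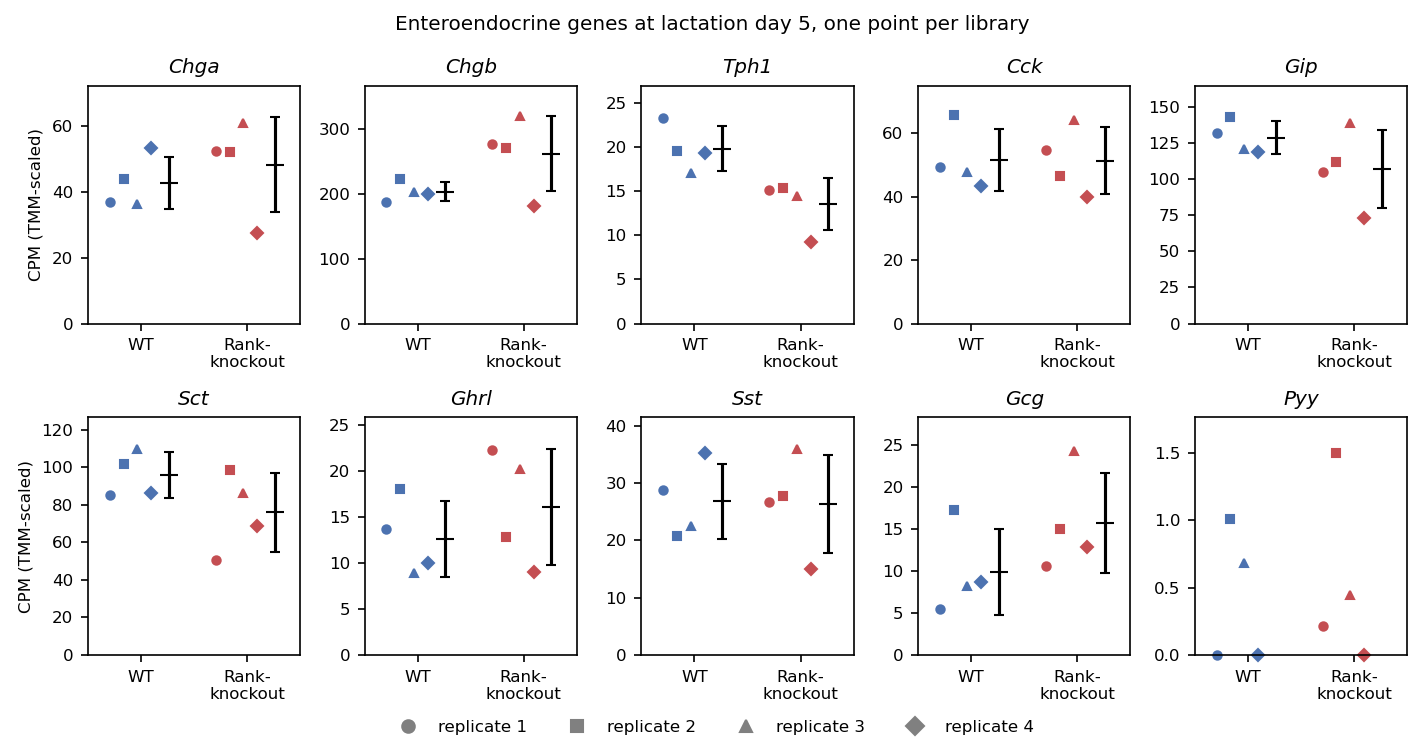
Levels of the 10 enteroendocrine genes in CPM (vertical axes from 0, a separate scale for each gene), with 1 point per library (blue, WT; red, Rank-knockout; the symbol gives the replicate number) and the mean ± SD of 4 libraries in black, left out for Pyy, which had 0 to 4 counts per library. The points of the genotypes overlap for every gene but Tph1, and Rank-knockout replicate 4 is the lowest Rank-knockout point for 7 of the 9 tested genes.

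Chga and Chgb encode chromogranin A and chromogranin B, acidic proteins that take part in forming the granules and are released with the hormones. Chga (ENSMUSG00000021194; GRCm38 chromosome 12, 102554969 to 102565028, plus strand) was counted 54, 173, 53 and 80 times in WT replicates 1 to 4, against 247, 139, 135 and 104 times in the Rank-knockout replicates. After scaling for depth this was 37.0, 43.8, 36.2 and 53.3 CPM in WT against 52.4, 52.2, 60.7 and 27.4 CPM in Rank-knockout. The highest and the lowest of the 8 values were both Rank-knockout libraries, and the genotypes overlapped. The means were 42.6 ± 7.90 and 48.2 ± 14.4 CPM (SD, n = 4), and the log2FC was 0.17 (SE 0.22; 95% interval -0.31 to 0.64; edgeR adjusted p = 0.61).

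Chgb (ENSMUSG00000027350; chromosome 2, 132781278 to 132795079, plus strand) was the most abundant of the 10 genes, with 273 to 1303 counts per library. It was at 187.01, 222, 202 and 199.7 CPM in WT replicates 1 to 4 and at 277, 270.2, 319.7 and 182 CPM in the Rank-knockout replicates. Rank-knockout replicates 1 to 3 lay above every WT library, and replicate 4 lay below all of them. The means were 203 ± 14.7 and 262 ± 57.9 CPM, and the log2FC of 0.37 (SE 0.16; 95% interval 0.02 to 0.71) had an edgeR adjusted p of 0.098. Without Rank-knockout replicate 4 the difference passed the threshold, with a log2FC of 0.51 and an edgeR adjusted p of 0.013. The call also appeared when libraries were scaled by their totals (0.57, edgeR adjusted p = 0.013) or by their totals without the 50 most abundant genes (0.50, edgeR adjusted p = 0.026). These scalings moved the median of all tested genes by 0.20 and 0.13 in the same direction. In these 3 analyses 17.5%, 26.1% and 22.2% of all tested genes were called higher, and Chgb was the 1 enteroendocrine gene called.

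The promoters of the granin and somatostatin genes are textbook cases of control through the cAMP response element, whose full form is TGACGTCA, and their stretches are shown for that reason. RefSeq promoters of GRCm38.p6, 300 bases around each start, were available for all 10 genes, and the element was searched on both strands. In the 3 genes that held at least its first 6 letters, TGACGT, the 30 bases around it read as follows, with the element in capitals.
Chga, chr12:102554886-102554915, plus strand: gggcggtcctaTGACGTAAtttcctgggtg
Chgb, chr2:132781559-132781588, plus strand: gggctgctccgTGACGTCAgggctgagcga
Sst, chr16:23890874-23890903, minus strand: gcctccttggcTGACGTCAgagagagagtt
The capitals begin 44, 72 and 48 bases before the RefSeq start of Chga, Chgb and Sst. GENCODE places the start of Chgb and of Sst further upstream than RefSeq does, so by the GENCODE positions printed here for these genes both elements lie inside the gene. The full element was in Chgb and Sst, and in 588 of 32851 promoters (1.79%). Its first 6 letters, which the full element contains, were in 2468 promoters (7.51%). A match says only that the letters stand in this window. Of these 3 genes, Chgb had a log2FC of 0.37, Chga of 0.17 and Sst of -0.02, and none was called.

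Serotonin is made from tryptophan in enterochromaffin cells, and Tph1 encodes tryptophan hydroxylase 1, the rate-limiting enzyme of its synthesis outside the brain. Tph1 (ENSMUSG00000040046; chromosome 7, 46644641 to 46672537, minus strand) was counted 34, 77, 25 and 29 times in WT replicates 1 to 4, against 71, 41, 32 and 35 times in the Rank-knockout replicates. This was 23.3, 19.5, 17.1 and 19.3 CPM in WT against 15.1, 15.4, 14.4 and 9.23 CPM in Rank-knockout. It was the 1 gene of the 9 in which every Rank-knockout library lay below every WT library, a pattern of no overlap that 28.8% of all tested genes had. The means were 19.8 ± 2.58 and 13.5 ± 2.89 CPM (SD, n = 4), with a log2FC of -0.55 (SE 0.22; 95% interval -1.03 to -0.08) and an edgeR adjusted p of 0.071. The log2FC was below 0 and missed the threshold in all 17 alternative analyses. Tph1 is also expressed by mast cells. Summed mast cell markers were at 1.37 to 5.48 CPM in WT against 3.16 to 7.13 CPM in Rank-knockout, with Cma1, Mcpt4 and Fcer1a at 0 counts in all 8 libraries. None of the 9 markers passed the filter on low counts. Kit had 12 counts in WT against 59 in Rank-knockout, Tpsb2 had 4 against 0, and Hdc had 9 in each. Fitted without that filter, the log2FC of Kit was 1.55 (edgeR adjusted p = 0.029). The part of mast cells in the value of Tph1 was not tested.

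The hormones of the upper small intestine were measured with 13 to 567 counts per library. Gip encodes gastric inhibitory polypeptide, an incretin released by K cells after a meal, and was the second most abundant gene of the group (ENSMUSG00000014351; chromosome 11, 96024545 to 96030831, plus strand). It was at 132, 144, 121 and 119 CPM in WT replicates 1 to 4 and at 105, 112, 139 and 73.5 CPM in the Rank-knockout replicates. Of the Rank-knockout libraries, replicate 3 lay within the WT range and the other 3 below it. The means were 129 ± 11.4 and 108 ± 27.1 CPM, with a log2FC of -0.27 (SE 0.17; 95% interval -0.64 to 0.10; edgeR adjusted p = 0.25).

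Sct encodes secretin, which drives bicarbonate release from the pancreas when acid enters the duodenum (ENSMUSG00000038580; chromosome 7, 141278330 to 141279133, minus strand). Its levels were 84.9, 102, 110 and 86.5 CPM in WT replicates 1 to 4 and 50.5, 98.7, 86.3 and 68.8 CPM in the Rank-knockout replicates. Here Rank-knockout replicate 1, not replicate 4, was the lowest library, and the genotypes overlapped. The log2FC was -0.35 (SE 0.19; 95% interval -0.75 to 0.06; edgeR adjusted p = 0.18). Cck encodes cholecystokinin, which contracts the gall bladder and signals satiety (ENSMUSG00000032532; chromosome 9, 121489824 to 121495694, minus strand). It was at 49.3, 65.6, 47.8 and 43.3 CPM in WT against 54.8, 46.5, 64.3 and 40.1 CPM in Rank-knockout. The genotypes overlapped almost fully, with means of 51.5 ± 9.76 and 51.4 ± 10.5 CPM and a log2FC of -0.03 (SE 0.19; 95% interval -0.42 to 0.37; edgeR adjusted p = 0.93). The sign of so small a difference depended on the analysis. Markers of the proximal small intestine were counted beside these hormones. Of 6 such genes 5 were tested, all with a log2FC below 0, and 2 were lower in Rank-knockout, beside 14.6% of all tested genes. These were Lct, which encodes lactase (log2FC -1.35, edgeR adjusted p = 0.000574), and Adh6a, an alcohol dehydrogenase gene (log2FC -0.87, edgeR adjusted p = 0.0046). The 6 genes summed to 2417 to 3620 CPM over the WT libraries and to 1198 to 1809 CPM over the Rank-knockout libraries, and their part in the values of Gip, Sct and Cck was not tested.

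Ghrl encodes ghrelin, a hunger-promoting peptide made mostly in the stomach and also by cells of the duodenum (ENSMUSG00000064177; chromosome 6, 113716119 to 113719880, minus strand). It was counted 20, 71, 13 and 15 times in WT replicates 1 to 4, against 105, 34, 45 and 34 times in the Rank-knockout replicates, which was 13.7, 18.0, 8.88 and 9.98 CPM against 22.3, 12.8, 20.2 and 8.96 CPM. The Rank-knockout libraries lay on both sides of the WT mean, and the log2FC was 0.28 (SE 0.31; 95% interval -0.38 to 0.93; edgeR adjusted p = 0.52). Of the 10 genes it was the one that shared its locus with other annotated genes, Gm26982 with 71 counts over all libraries and Gm44033 with 0, both on the opposite strand, and counting was by strand. Of the markers of stomach and large intestine, Muc5ac, Tff1, Gkn1 and Gkn2 had 0 counts, and the sum of all 8 markers was at most 5.09 CPM.

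Sst encodes somatostatin, the inhibitory hormone of D cells that restrains the release of many other gut hormones (ENSMUSG00000004366; chromosome 16, 23889573 to 23890958, minus strand). It was at 28.8, 20.8, 22.5 and 35.3 CPM in WT replicates 1 to 4 and at 26.7, 27.8, 36.0 and 15.0 CPM in the Rank-knockout replicates. Both the highest and the lowest value belonged to Rank-knockout. The means were 26.8 ± 6.59 and 26.4 ± 8.62 CPM, and the log2FC was -0.02 (SE 0.26; 95% interval -0.56 to 0.52; edgeR adjusted p = 0.96), again with a sign that changed between analyses. Enteric neurons also make somatostatin. Summed neuron and glia markers were at 2.73 to 3.99 CPM in WT against 2.90 to 4.503 CPM in Rank-knockout.

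Gcg encodes proglucagon, which L cells process to the glucagon-like peptides, and Pyy encodes peptide YY, which slows gastric emptying. Gcg (ENSMUSG00000000394; chromosome 2, 62474530 to 62483650, minus strand) was counted 8, 68, 12 and 13 times in WT replicates 1 to 4, against 50, 40, 54 and 49 times in the Rank-knockout replicates. This was 5.48, 17.2, 8.20 and 8.65 CPM in WT against 10.6, 15.0, 24.3 and 12.9 CPM in Rank-knockout. WT replicate 2 lay within the Rank-knockout range and the other 3 WT libraries lay below every Rank-knockout library. The means were 9.89 ± 5.09 and 15.7 ± 5.99 CPM, and the log2FC was 0.50 with the widest interval of the 9 genes (SE 0.34; 95% interval -0.22 to 1.21; edgeR adjusted p = 0.28). Without WT replicate 2, by far the deepest WT library, its log2FC was 1.02 and its edgeR adjusted p 0.029, in an analysis that called 15.8% of all tested genes higher. Of 6 markers of the pancreas, where Gcg and Sst are also made, Ins1, Ins2, Ppy and Prss1 had 0 counts in all libraries, Ctrb1 had 4 counts, all in Rank-knockout, and Cela1 was present in every library, at 36.2 to 62.1 CPM in WT against 29.7 to 49.9 CPM in Rank-knockout.

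Pyy (ENSMUSG00000017311; chromosome 11, 102106676 to 102107832, minus strand) was counted 0, 4, 1 and 0 times in WT replicates 1 to 4, against 1, 4, 1 and 0 times in the Rank-knockout replicates. With so few counts it was left out of the test, and no difference was detectable at this depth. A count of 0, which allows up to 3 counts, allows a level of up to 2.06 CPM in WT replicate 1, 1.997 CPM in WT replicate 4 and 0.791 CPM in Rank-knockout replicate 4. Pyy was thus lower than Gcg in every library, although L cells of the lower gut make both. Fabp6, an ileal marker, was counted 1, 9, 2 and 1 times in WT against 46, 9, 9 and 21 times in Rank-knockout, without overlap in CPM, and did not pass the filter on low counts. Fitted without that filter, its log2FC was 2.002 (SE 0.50, edgeR adjusted p = 0.000695). Fgf15 had 0 counts in all libraries. The 3 ileal markers that passed the filter, of 6, had log2FC values of -0.74 for Slc51b (edgeR adjusted p = 0.0079), -0.49 for Slc51a (edgeR adjusted p = 0.074) and -0.26 for Guca2a (edgeR adjusted p = 0.35).

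**Figure D2:**
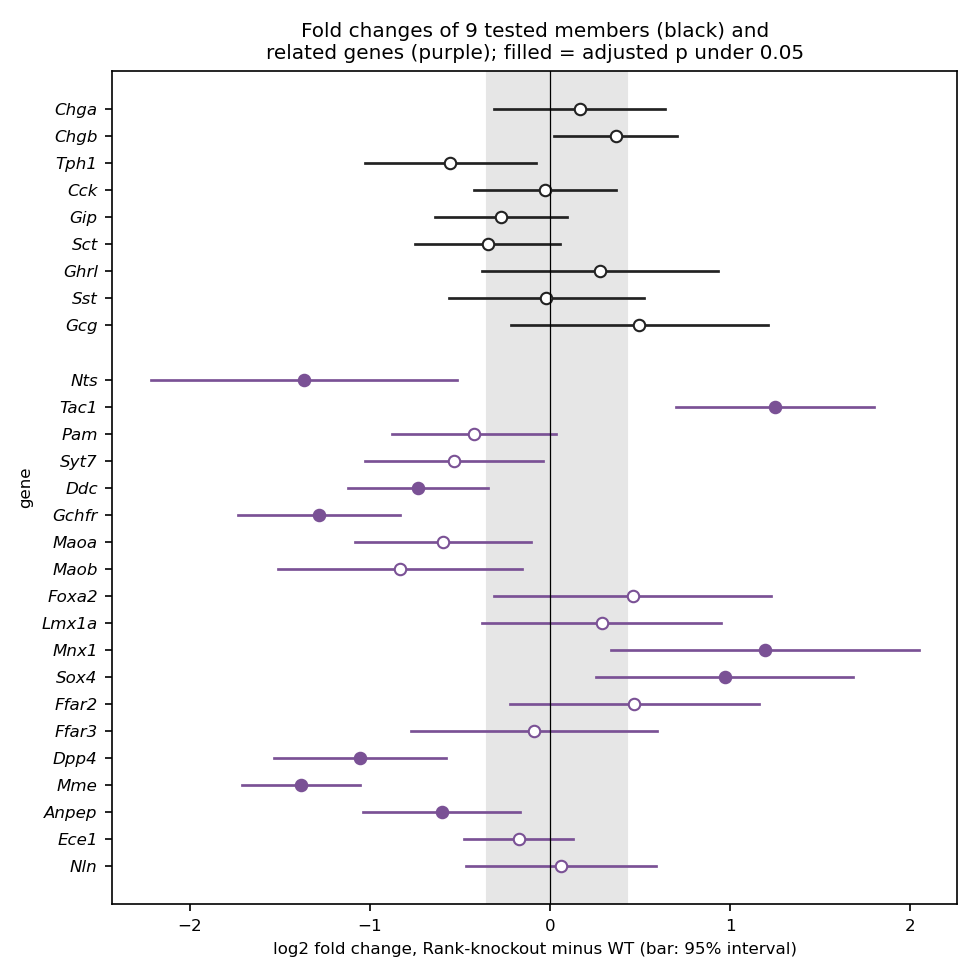
Log2FC values of Rank-knockout minus WT (horizontal axis) with their 95% intervals for the 9 tested enteroendocrine genes (black) and for related genes named by rule (purple). Filled points passed an edgeR adjusted p of 0.05, open points did not, and the grey band spans the interquartile range of all 9855 tested genes. All black points are open and lie between -0.55 and 0.50, and filled purple points reach 1.25 for Tac1 and -1.38 for Mme.

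Ordered by mean level in WT, the genes ran Chgb, Gip, Sct, Cck, Chga, Sst, Tph1, Ghrl, Gcg and Pyy. Between neighbours in this order, the 4 WT libraries did not overlap from Chgb to Gip, from Gip to Sct, from Sct to Cck, from Chga to Sst and from Gcg to Pyy. Cck and Chga overlapped, as did each neighbouring pair from Sst to Gcg. In Rank-knockout the order was the same for the first 6 genes, followed by Ghrl, Gcg, Tph1 and Pyy, so that Tph1 went from above Ghrl and Gcg to below them. There, neighbours did not overlap only from Chgb to Gip and from Tph1 to Pyy.

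Summed over the 10 genes, enteroendocrine transcripts made up 562, 654, 574 and 575 CPM in WT replicates 1 to 4 and 614, 652, 766 and 438 CPM in the Rank-knockout replicates. The means were 591 ± 42.3 and 617 ± 136 CPM (SD, n = 4), a difference smaller than the spread of either genotype on this scale. Set against library totals instead, the sums were 524 to 595 CPM in WT, with a mean of 547 ± 32.3, and 462 to 810 CPM in Rank-knockout, with a mean of 656 ± 144. This difference was larger than the WT spread and smaller than the Rank-knockout spread. On that scale Rank-knockout replicates 1 to 3 lay above every WT library and replicate 4 below. Rank-knockout replicate 4 was the lowest library of all and replicate 3 the highest. On the first scale, the Rank-knockout libraries without replicate 4 ran from 614 to 766 CPM, and replicates 1 and 2 lay within the WT range.

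The make-up of these transcripts can be read without any scaling between libraries, as each gene's share of the summed counts of the 10 genes, which were 820 to 2581 per WT library and 1660 to 2894 per Rank-knockout library. Chgb took 34.3% ± 0.832 of them in WT against 42.4% ± 1.74 in Rank-knockout (SD, n = 4). Gip took 21.8% ± 1.26 and 17.3% ± 0.606, and Tph1 took 3.36% ± 0.551 and 2.20% ± 0.259. In these 3 of the 10 genes the shares of the genotypes did not overlap. In CPM 28.8% of all tested genes did not overlap, and shares have no such background, so nothing is read from that count. Sct took 16.2% ± 1.96 in WT and 12.6% ± 3.52 in Rank-knockout, and Gcg took 1.64% ± 0.706 and 2.54% ± 0.654. In these, as in Cck, Chga, Sst, Ghrl and Pyy, the genotypes overlapped. Shares sum to 100%, so a larger share of Chgb lowers the others by construction, and they were not tested. Set against Chga in place of the sum, Tph1 was at 0.477 ± 0.112 counts per Chga count in WT and 0.289 ± 0.0408 in Rank-knockout, without overlap, whereas Chgb (4.87 and 5.59) and Gip (3.11 and 2.28) overlapped.

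**Figure D3:**
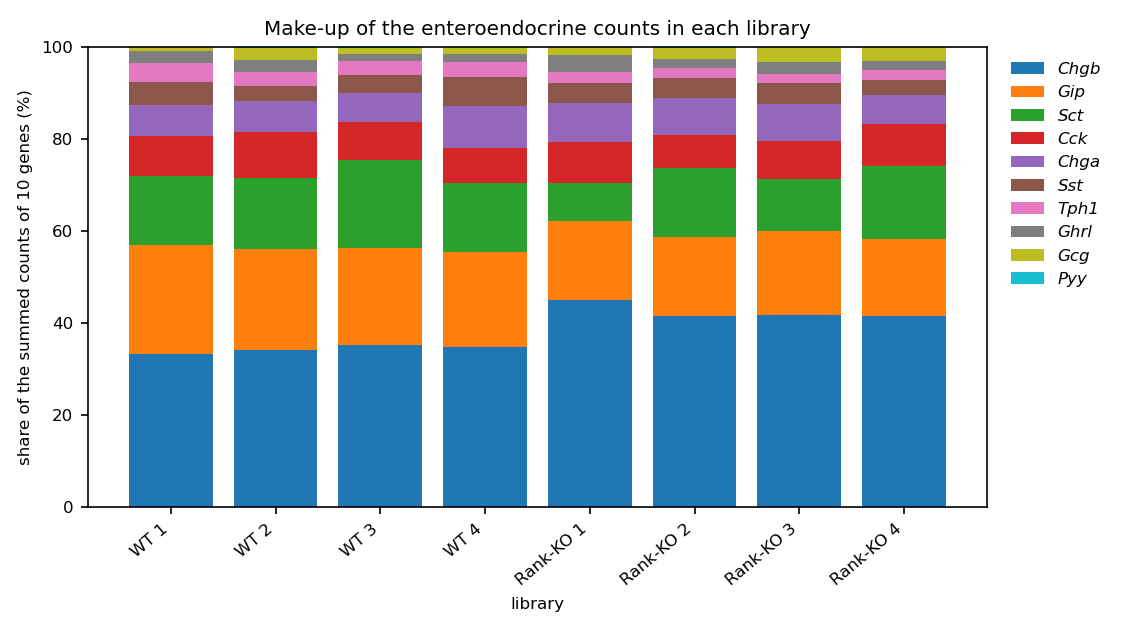
Share of each of the 10 genes in their summed counts (vertical axis, percent) for each of the 8 libraries, stacked in order of the mean WT share. The lowest segment, Chgb, is larger in every Rank-knockout library (42.4% ± 1.74) than in any WT library (34.3% ± 0.832), and the Gip segment above it is smaller (17.3% ± 0.606 against 21.8% ± 1.26).

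Libraries of 1 genotype differed in these genes together. With each genotype's mean subtracted from the log2 CPM, the 36 pairs among the 9 tested genes had a median Pearson r of 0.57 over the 8 libraries, and 33 of them were above 0. These correlations share the libraries and their scaling, and they are a description. The closest pairs were Chgb with Gip (r = 0.94), Cck with Ghrl (0.89) and Chga with Chgb (0.89), and the lowest was Sct with Ghrl (-0.25). Among Rank-knockout libraries replicate 4 was the lowest in 7 of the 9 genes and replicate 3 the highest in 6. In Sct and Gcg replicate 1 was the lowest. Among WT libraries replicate 2 was the highest in 5 genes. Of all other tested genes, the one whose deviations followed those of Chga most closely was Lmx1a, which encodes a transcription factor of enterochromaffin cells (r = 0.99 over 8 libraries), followed by Csnk1e (0.98), Scoc (0.98), Qtrt1 (0.96) and Coq5 (0.96). These genes were picked as the highest of all tested genes, so their high r values follow from the choice, and no link to Chga is read from them. Lmx1a ranged from 8.20 to 15.3 CPM over the WT libraries and from 6.33 to 18.4 CPM over the Rank-knockout libraries and was not called (log2FC 0.29, edgeR adjusted p = 0.52). Its log2FC was 0.13 without Rank-knockout replicate 3 and 0.54 without Rank-knockout replicate 4, and it was not called in either case.

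**Figure D4:**
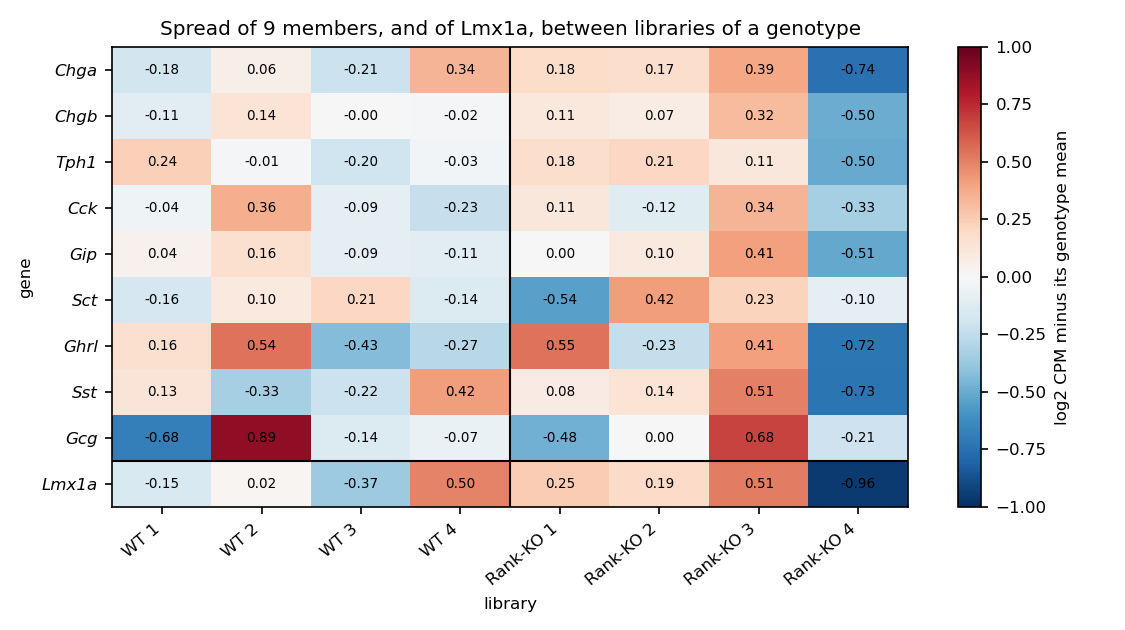
Log2 CPM of each of the 9 tested genes and of Lmx1a minus the mean of its genotype (colour and printed value), with genes in rows and the 8 libraries in columns, and a black line between the genotypes. The column of Rank-knockout replicate 4 is below 0 for all 9 tested genes, and that of Rank-knockout replicate 3 is above 0 for all 9. Lmx1a, in the last row, was picked because it followed Chga most closely.

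Further genes of these cells were counted from lists. Of 10 other gut hormone genes, 2 had enough counts to test, and these were called in opposite directions, beside 30.4% of all tested genes called. Tac1, which encodes the precursor of substance P and neurokinin A, peptides of enterochromaffin cells as well as of neurons, was counted 18, 36, 9 and 10 times in WT replicates 1 to 4, against 102, 61, 53 and 56 times in the Rank-knockout replicates. Every Rank-knockout library lay above every WT library, with means of 8.56 ± 2.83 and 20.8 ± 4.11 CPM (SD, n = 4) and a log2FC of 1.25 (SE 0.26 and edgeR adjusted p = 0.0023), and the call held in all 17 alternatives. The neuron and glia markers summed to at most 4.503 CPM in any library. Nts, which encodes neurotensin, was counted 29, 123, 53 and 60 times in WT against 39, 31, 58 and 23 times in Rank-knockout. Its means were 31.8 ± 8.72 and 13.0 ± 9.01 CPM, a log2FC of -1.37 (SE 0.39 and edgeR adjusted p = 0.020), with Rank-knockout replicate 3 inside the WT range. The call ended when any of WT replicates 2 and 4 and Rank-knockout replicates 1 and 2 was left out, with edgeR adjusted p values of 0.0501, 0.062, 0.0698 and 0.052 in turn. Gast and Gal had 0 counts in all libraries.

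Genes of granules and of prohormone processing gave no call. Of 24, 6 were tested and 0 passed in edgeR, DESeq2 or limma-voom (beside 30.4%, 29.2% and 29% of all tested genes). The median log2FC of the 6 was -0.27 beside 0.02 for all tested genes. An unadjusted edgeR p under 0.05 was reached by 3 of them. At least 30.4% of all tested genes pass that cut, so nothing is read from that count. The most abundant were Pam, the enzyme that amidates peptide hormones, at 29.2 ± 6.70 CPM in WT against 21.7 ± 4.51 CPM in Rank-knockout (log2FC -0.42, edgeR adjusted p = 0.15), and Syt7, a calcium sensor of granule release, at 23.8 ± 7.23 and 16.8 ± 1.97 CPM (-0.53, edgeR adjusted p = 0.092). Pcsk1, which cleaves prohormones, had a log2FC of -0.10, and Cpe, which trims the cleaved peptides, of -0.12. Rab3c, a gene of vesicle traffic named after its value was seen, was the 1 tested gene of the list above 0, at 5.39 ± 0.492 CPM in WT against 8.76 ± 2.46 CPM in Rank-knockout without overlap (log2FC 0.67, edgeR adjusted p = 0.099). Scg2, which encodes secretogranin II and was also named after its value was seen, was at 19.2 ± 5.96 CPM in WT against 12.9 ± 3.51 CPM in Rank-knockout with overlap (log2FC -0.62, 95% interval -1.18 to -0.06, edgeR adjusted p = 0.087).

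Of 8 genes of serotonin synthesis, storage and clearance, Tph1 not among them, 7 were tested and 2 were lower, where 14.6% of all tested genes were, with a median log2FC of -0.63. The number lower was 4 with DESeq2, with limma-voom and without the filter on low counts, which called 15%, 14.4% and 6.66% of all tested genes lower, and 5 with the replicate number as a block, which called 16.3% lower. Gchfr encodes the feedback regulator of the enzyme that makes the cofactor of tryptophan hydroxylase. It was at 21.9, 22.0, 22.5 and 27.3 CPM in WT replicates 1 to 4 and 11.7, 8.63, 9.44 and 8.17 CPM in the Rank-knockout replicates, a log2FC of -1.28 (SE 0.21 and edgeR adjusted p = 0.000615) with no overlap. Ddc, which encodes the enzyme that converts the product of tryptophan hydroxylase to serotonin, went from 623 ± 53.5 to 375 ± 103 CPM without overlap, a log2FC of -0.73 (edgeR adjusted p = 0.0075). At 623 CPM in WT, Ddc was far above Tph1, at 19.8 CPM. Maoa and Maob, whose enzymes degrade serotonin, had log2FC values of -0.59 and -0.83 (edgeR adjusted p = 0.062 and 0.063). DESeq2 called both lower, with adjusted p values of 0.043 and 0.014, as did limma-voom, with 0.049 and 0.031. Slc18a1, which encodes the transporter that loads serotonin into granules, had a log2FC of -0.63 (edgeR adjusted p = 0.051), and Slc6a4, the gene of the serotonin transporter of the cell membrane, of -0.08. Villus enterocytes also express Ddc and the monoamine oxidases, and 7 of 8 villus enterocyte markers were lower in Rank-knockout, with a median log2FC of -1.03. Their part in these values was not tested.

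Among 22 transcription factor genes of the lineage, 5 were tested and 2 were higher, where 15.8% of all tested genes were. These were Mnx1, from 5.96 ± 3.70 to 13.1 ± 4.94 CPM (log2FC 1.19, edgeR adjusted p = 0.035), and Sox4, from 80.3 ± 25.3 to 158 ± 66.5 CPM (0.97, edgeR adjusted p = 0.044), a factor that crypt progenitors of other lineages express as well. In both the genotypes overlapped. The call of Mnx1 was lost in 7 of 17 alternatives, among them without WT replicate 2 or 3 or without Rank-knockout replicate 1, 2 or 3, and that of Sox4 in 5, without WT replicate 2, 3 or 4 or without Rank-knockout replicate 1 or 3. All 10 replication and cell cycle genes were higher in Rank-knockout, with a median log2FC of 1.21, and their part in these values was not tested. Neurog3 itself was counted 3, 15, 3 and 2 times in WT replicates 1 to 4, against 24, 9, 13 and 8 times in the Rank-knockout replicates and was too low to be tested. Neurod1, its target in maturing endocrine cells, was at 8.82 ± 3.12 and 8.77 ± 0.875 CPM, a log2FC of 0.00 (edgeR adjusted p = 0.996). Foxa2 had a log2FC of 0.46 (SE 0.36 and edgeR adjusted p = 0.35), which was 0.98 with an edgeR adjusted p of 0.045 when WT replicate 2 was left out. Over all libraries left out, the log2FC of Foxa2 ran from 0.19 to 0.98.

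The nutrient sensors of enteroendocrine cells and the receptors of their hormones were near the limit of these libraries. Of 16 sensor genes 2 were tested, the short-chain fatty acid receptor genes Ffar2 and Ffar3, with log2FC values of 0.47 (edgeR adjusted p = 0.29) and -0.09 (edgeR adjusted p = 0.86). With all libraries thinned to the shallowest, the log2FC of Ffar2 was 0.93 (edgeR adjusted p = 0.061). Of 16 hormone receptor genes 0 were tested, and 8 of them, Cckar, Cckbr, Glp1r, Gcgr, Sctr, Npy4r, Ghsr and Htr3a, had 0 counts in all libraries.

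Of 9 genes of enzymes that act on the secreted peptides, 7 were tested and 3 were lower, where 14.6% of all tested genes were, with a median log2FC of -0.20. Mme, which encodes neprilysin, a membrane peptidase that cleaves many small peptides, went from 2473 ± 276 to 948 ± 132 CPM (SD, n = 4), a log2FC of -1.38 (SE 0.15 and edgeR adjusted p = 9.88e-05) without overlap. Dpp4, whose product inactivates glucagon-like peptide 1 and gastric inhibitory polypeptide, was at 319, 228, 491 and 507 CPM in WT replicates 1 to 4 and at 178, 169, 166 and 227 CPM in the Rank-knockout replicates. Its log2FC was -1.06 (SE 0.22 and edgeR adjusted p = 0.0033), and the lowest WT library and the highest Rank-knockout library lay next to each other. Anpep, an aminopeptidase gene, had a log2FC of -0.60 (edgeR adjusted p = 0.037), which was lost in 9 of 17 alternatives, among them without WT replicate 1, 3 or 4 or without Rank-knockout replicate 1 or 3. Ece1 and Nln had log2FC values of -0.17 and 0.06 (edgeR adjusted p = 0.38 and 0.88). Thop1, named after its value was seen, had a log2FC of 1.006 (SE 0.38, edgeR adjusted p = 0.053). The 3 lower genes encode brush border enzymes of enterocytes, and Anpep is itself among the 8 villus enterocyte markers, of which 7 were lower. The part of these cells in the values was not tested.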

How the data were processed

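Libraries were QuantSeq 3′ FWD preparations of total RNA, read as single ends. According to the study's methods, the authors used BBDuk for trimming, bowtie2 to discard abundant sequences, STAR for alignment to GRCm38/mm10 and featureCounts for sense reads per gene. The deposited values are raw counts, and the authors tested them with DESeq2. No molecular identifiers are named, so PCR copies count as reads and the limits given for counts of 0 cover counting error only.

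Symbols and positions were taken from GENCODE M21 (GRCm38), which held 54495 of the 54532 identifiers. Counts were filtered with filterByExpr (minimum count 10), scaled by TMM and tested with edgeR 4.0.16 in R 4.3.3 (quasi-likelihood F-test, robust, genotype as the single term), with Benjamini-Hochberg adjustment over 9855 genes and a threshold of 0.05. SE and 95% intervals came from the F statistic. The scripts were tested on simulated data. Alternatives changed the scaling (RLE, library totals, totals less the 50 most abundant genes), the filter (none, or a minimum mean of 5 CPM), the tool (DESeq2 1.42.0 or voom in limma 3.58.1), the design (replicate number as a block), the depth (thinned to 1530781 counts) or the libraries (each left out).

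The 10 genes, the lists and the markers were chosen with earlier results of these data known, although the rule for the 10 genes uses their names and no measured value. Of each list, the text names up to 5 called genes whose mean reached 5 CPM and the 2 most abundant that were not called, and the 5 genes most like Chga. Neurog3, Neurod1, Pcsk1, Cpe, Slc6a4, Slc18a1, Thop1, Rab3c, Scg2, Kit, Tpsb2, Hdc and genes at 0 counts were named in addition, after their values were seen. The labels name 1 mouse for each library, and no pair of libraries of the same genotype agreed within sampling noise.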

Additional observations from a re-analysis of the deposited data

Results flagged for a closer look

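Within a genotype, the library farthest from the other 3 was tested for each gene, share and total with Dixon's criterion, and 8 of 80 sets of 4 libraries were beyond it, where chance gives about 4. For total counts it was WT replicate 2, with 4335653 beside 1530781 to 1616024. For the level of Tph1 it was Rank-knockout replicate 4, at 9.23 CPM beside 14.4 to 15.4 CPM. In the shares of the 10 genes' summed counts it was Chga in WT replicate 4 (9.26% beside 6.30% to 6.70%), Chgb in Rank-knockout replicate 1 (45.0% beside 41.4% to 41.7%) and Sct in WT replicate 3 (19.1% beside 15.0% to 15.6%). Among the related genes it was Syt7 in WT replicate 3 (13.0 CPM beside 26.6 to 28.1 CPM), whose log2 fold change was -0.74 with an edgeR adjusted p of 0.016 without that library, Gchfr in WT replicate 4 (27.3 CPM beside 21.9 to 22.5 CPM) and Ffar3 in WT replicate 1 (5.48 CPM beside 7.32 to 7.60 CPM).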

How the results depend on the processing

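Of the 10 genes, 0 were called lower in any of 17 alternatives, and 1 was called higher in 4 of them: Chgb with library totals (log2FC 0.57, here and below Rank-knockout minus WT), with totals less the 50 most abundant genes (0.50) and when Rank-knockout replicate 4 was left out (0.51), and Gcg when WT replicate 2 was left out (1.02). Over the libraries left out, Chgb ran from 0.26 to 0.51, Gcg from 0.24 to 1.02, Cck from -0.14 to 0.12, Sst from -0.19 to 0.18 and Ffar3 from -0.45 to 0.037. Chga, Tph1, Gip, Sct and Ghrl kept direction and side of the threshold in all 17, with ranges over the libraries left out of 0.042 to 0.37, -0.63 to -0.40, -0.42 to -0.12, -0.50 to -0.18 and 0.045 to 0.55. Pyy could be fitted only without the filter on low counts. Cck turned to 0.18 with totals, 0.11 without the 50 most abundant genes, 0.0054 without the filter, 0.016 after thinning, and 0.018 to 0.12 when WT replicate 2 or Rank-knockout replicate 2 or 4 was left out. Sst turned to 0.18 with totals, 0.11 without the 50 most abundant genes, 0.018 without the filter, and 0.10 and 0.18 without WT replicate 4 and Rank-knockout replicate 4. Ffar3 turned to 0.12, 0.048 and, without Rank-knockout replicate 2, 0.037, Ece1 to 0.022 with totals, and Nln to between -0.067 and -0.016 when WT replicate 1 or 4 or Rank-knockout replicate 3 was left out. With totals, 2575 genes were called higher and 857 lower, 75.0% of calls being higher beside 52.0% with TMM, and without the 50 most abundant genes 68.6%. Leaving out a library gave 1020 to 1723 higher genes, the fewest without WT replicate 4, and 1097 to 1564 lower. The labels do not say whether the replicate numbers pair the libraries. Deviations of same-numbered libraries correlated at 0.052, 0.15, -0.14 and 0.33, and 4 of 8 libraries correlated best with their own number. So few libraries cannot decide whether the numbers pair them. With the number as a block, 1708 genes were higher and 1602 lower, 0 of the 10 genes were called, and 5 serotonin genes were lower, 1 transcription factor gene was higher and 1 gene of peptide breakdown was higher. Serotonin genes called lower were 4 without the filter, by DESeq2 and by limma-voom, the additional ones being Maoa and Maob. Maoa was also called without Rank-knockout replicate 4 (-0.74), and Maob without WT replicate 1 (-0.99) and without Rank-knockout replicate 1 (-0.57). Over all libraries left out, Maoa ran from -0.74 to -0.37 and Maob from -0.99 to -0.57. Granule genes called higher were 1 with either form of totals. Transcription factor genes called higher were 1 after thinning, and 1 was called lower without the filter. Peptide breakdown genes called higher were 1 with either form of totals and without the filter. When a library was left out, 0 to 2 transcription factor genes and 0 to 1 peptide breakdown gene were higher, and 0 to 1 granule gene and 0 to 1 further hormone gene were lower. Relative to Chga, the log2 difference was 0.21 for Chgb and -0.43 for Gip. The cause of these shifts was not tested. Pyy, the receptors and most sensors and transcription factors had too few counts to test, and limited depth was not told apart from absence of the transcript.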
